A study of Macaca fascicularis with 64 samples.

Results

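The 94 potassium channel genes described here are the genes whose symbol consists of KCN, 1 or more further letters and a closing number, out of the 28141 genes listed in both expression tables. By name they divide into 40 voltage-gated pore subunits, 15 inward rectifiers, 15 2-pore-domain leak channels, 8 calcium- or sodium-activated pore subunits and 16 auxiliary subunits. Of the 94 genes, 89 reached 1 FPKM in at least 1 library and 54 reached 10 FPKM, where FPKM is the number of sequenced fragments scaled by transcript length and by the mapped fragments of the library. None was listed at 0 in every library, and KCNK18, KCNU1, KCNK16 and KCNA10 were above 0 in fewer than 10 of the 64 libraries.

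RNA was sequenced from tissues of cynomolgus monkeys (Macaca fascicularis), and the study asked how loss of SIRT6, a nuclear sirtuin that removes acyl groups from histones, alters development. The newborn animals were labelled as SIRT6 knockout (KO2 and KO3) or wild type (WT2 and WT3), and each gave 2 libraries of brain, heart, kidney, muscle, liver, lung and thymus. The fetal libraries were all wild type and came from brain or muscle at gestation month 2 or month 4, with 2 libraries for each tissue and month. The sources used here do not give the kind of mutation, the exact age of the newborns or whether the fetal libraries came from separate fetuses. Newborn values below are means of an animal's 2 libraries and are given in the order KO2, KO3, WT2, WT3.

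Potassium channels let potassium ions cross the cell membrane, which sets the resting potential and ends action potentials in nerve and muscle. Voltage-gated channels open on depolarisation, inward rectifiers and leak channels hold the resting potential, and auxiliary subunits change the gating or the surface delivery of the pore. In kidney tubules, potassium channels recycle or secrete potassium alongside the sodium pump and the salt cotransporters.

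In the whole series, the FPKM values of a library summed to between 311092 and 587030, and 11052 to 14028 genes reached 1 FPKM. Repeat libraries of an animal and tissue correlated across genes at r = 0.96 to 0.994. FPKM keeps no count, so read depth is unknown and no counting interval is given. SIRT6 transcript stood at 3.07 to 12.4 FPKM in KO tissues and 6.18 to 12.4 FPKM in WT tissues, ranges that overlap, and a gene-level value does not test a small mutation. Marker genes fitted the tissue labels in all 4 animals: the 6 neuronal markers summed to 2124 to 2704 FPKM in brain, the 5 skeletal muscle markers to 29874 to 73225 FPKM in muscle, the 3 measured cardiomyocyte markers to 4121 to 9563 FPKM in heart and the 5 proximal tubule markers to 231 to 1581 FPKM in kidney. Tissue was sequenced in bulk, so fewer cells of a type and less RNA per cell cannot be told apart.

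In wild-type newborns, more potassium channel genes had their highest level in brain than in any other tissue. Of the 81 that averaged at least 1 FPKM in some WT tissue, 46 had their highest mean in brain, which is 56.8% against 23.65% of all 17424 genes at that level. Heart held the highest mean of 8, kidney of 7, thymus of 7, liver of 5, muscle of 5 and lung of 3. Of the 46 with a brain maximum, 24 were voltage-gated pore subunits. At 10 FPKM or more, 28 were found in brain, 7 in kidney, 5 in thymus, 4 in heart, 4 in muscle, and 1 each in liver and lung.

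KCNH3, a voltage-gated channel of the forebrain, led the brain with 72.1 FPKM in WT2 and 76.5 in WT3, 10.2 times its mean in kidney, the next tissue. KCNJ4, an inward rectifier, stood at 49.8 and 76.8 FPKM in brain and had its next highest mean, 18.2 FPKM, in heart. KCNG1, a silent subunit that alters other voltage-gated pores, stood at 20.8 and 75.1 FPKM, so the 2 WT animals differed widely. KCNQ3, a pore of the M-current that damps repetitive firing, was nearly brain-specific, at 36.5 and 22.0 FPKM in WT brain against a mean of 0.061 in lung, its next tissue. The calcium-binding auxiliary subunits KCNIP3 (36.2 and 41.1 FPKM) and KCNIP2 (47.8 and 27.0 FPKM) and the beta subunit KCNAB2 (28.8 and 37.2 FPKM) were also among the 8 most abundant brain members.

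Heart, kidney and muscle each had their own leading set. KCNH2 and KCNQ1, the pores of the rapid and slow delayed rectifier currents that repolarise the ventricle, led the heart at 17.4 and 31.0 FPKM and at 18.8 and 19.7 FPKM in WT2 and WT3. KCNJ2, the main inward rectifier of the ventricle, stood at 7.30 and 12.1 FPKM there, 3.20 times its mean in muscle. In kidney, KCNJ1, the secretory channel ROMK of the thick ascending limb and collecting duct, stood at 44.3 and 75.3 FPKM and at a mean of 0.352 FPKM in the next tissue, thymus. KCNJ16, which joins KCNJ10 in the basolateral membrane of the tubule, stood at 41.2 and 61.5 FPKM in kidney against a mean of 1.44 in muscle. In muscle, KCNJ11, the pore of the ATP-sensitive channel that couples metabolism to excitability, led at 42.3 and 68.2 FPKM, 9.14 times its mean in brain. KCNQ1 did not separate heart from kidney, with means of 19.3 and 18.3 FPKM, and KCNMA1, the large-conductance calcium-activated pore, did not separate muscle from brain, with means of 24.2 and 26.1 FPKM.

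**Figure D1:**
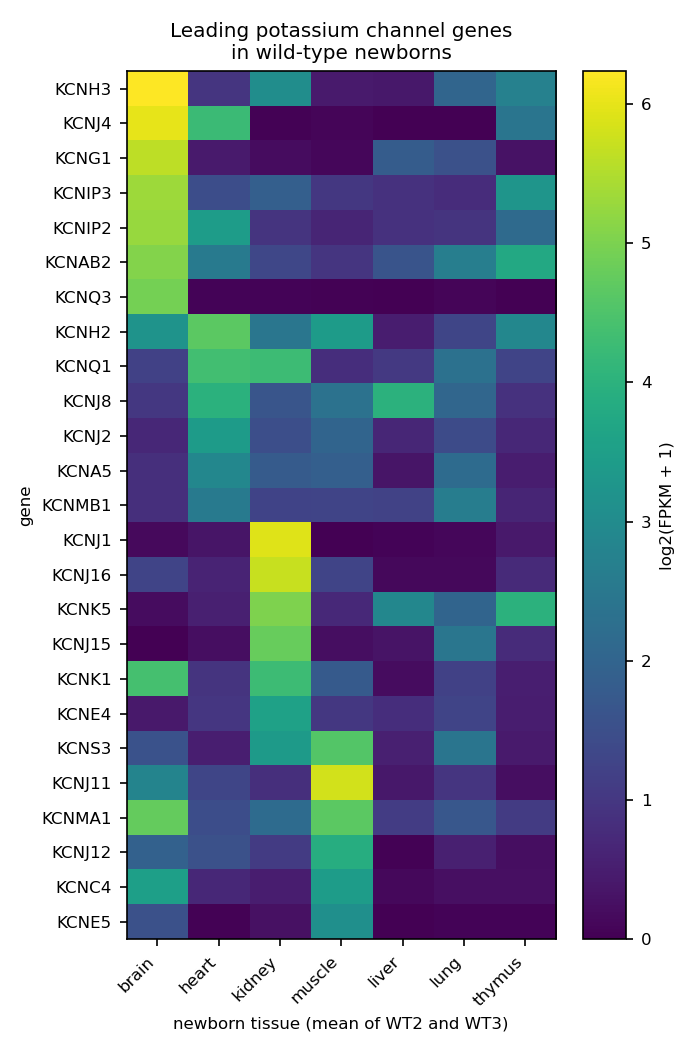
Levels of 25 genes (rows) from among the 8 most abundant potassium channel genes of each of WT newborn brain, heart, kidney and muscle in 7 tissues (columns). Colour gives log2(FPKM + 1) of the mean of WT2 and WT3, and most genes are brightest in the tissue that chose them, while KCNQ1 is alike in heart and kidney at means of 19.3 and 18.3 FPKM.

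Each tissue was then tested against the mean of the other 6 in the WT animals with limma on log2(FPKM + 1), with the animal as a block. Of 63 members with a mean of at least 1 FPKM, 45 were higher and 11 lower in brain, where 32.2% of all 14932 genes were higher and 34.2% lower. In heart 13 were higher and 33 lower, against 14.3% and 37.2% of all genes. In kidney 16 were higher and 25 lower, against 33.1% and 13.3%. In muscle 11 were higher and 37 lower, against 14.7% and 47.1%. A gene can pass the level filter on 1 tissue alone, so these counts describe the set and support nothing further. The median difference of members was 1.79 in brain, -0.64 in heart, -0.30 in kidney and -0.70 in muscle on the log2 scale, beside medians of all genes of -0.06, -0.32, 0.26 and -0.45. In the KO animals the same tests, over 54 members, called 38 in brain, 25 in heart, 17 in kidney and 21 in muscle. Fewer of all genes were called in the KO animals as well, with 42.2% in brain, 25.6% in heart, 24.6% in kidney and 22% in muscle, beside 66.4%, 51.5%, 46.4% and 61.7% in WT.

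In kidney, SIRT6 knockout newborns had lower levels of 5 potassium channel genes and higher levels of none by limma at an adjusted p of 0.05. The 5 were the tubular inward rectifier KCNJ16, the voltage-gated pore KCNQ1, the leak channels KCNK1 and KCNK3, and the auxiliary subunit KCNIP1. They came from 38 members tested, in a comparison that called 4.76% of all 13937 genes lower and 1.02% higher. In 17 of the 38, both KO animals lay below both WT animals, against 29.5% of all genes. In 8 of the 38 both KO animals lay above, against 22.9%. The 5 calls depended on single animals. Without WT2, 1 of 38 members was called, with 1.3% of all genes, and without WT3, 1 of 37, with 1.34%.

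KCNJ16 stood at 9.24 and 13.6 FPKM in the knockouts and 41.2 and 61.5 in the wild types. The groups did not overlap, and the KO mean was 4.5-fold lower. On the log2 scale KCNJ16 fell by 2.07 (SE 0.32, limma adjusted p = 0.011, 2 against 2 animals). Its channel partner KCNJ10 stood at 2.50 and 5.66 FPKM against 7.0 and 9.75, also without overlap, but did not pass (limma adjusted p = 0.20).

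KCNQ1, which assembles with KCNE subunits in epithelia, stood at 3.52 and 6.37 FPKM in the knockouts and 15.2 and 21.4 in the wild types. Both KO animals were below both WT animals, with a log2 change of -1.73 (SE 0.35, limma adjusted p = 0.025). KCNE1, its auxiliary partner, was at 0.391 and 0.577 FPKM against 2.05 and 2.13 and did not pass (limma adjusted p = 0.11). KCNE4, another auxiliary subunit of KCNQ1, was at 1.78 and 1.30 FPKM against 17.0 and 4.86, and its log2 change of -2.02 (SE 0.50) narrowly missed the threshold (limma adjusted p = 0.0503).

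Among the leak channels, KCNK1 stood at 5.39 and 7.87 FPKM in the knockouts and 19.2 and 17.3 in the wild types, a log2 change of -1.35 (SE 0.30, limma adjusted p = 0.037). KCNK3, an acid-sensitive leak channel, stood at 0.942 and 0.792 FPKM against 4.00 and 6.16, a log2 change of -1.68 (SE 0.34, limma adjusted p = 0.025). Neither gene overlapped between the genotypes. KCNK5, a pH-sensitive leak channel of the proximal tubule, was at 15.9 and 11.2 FPKM against 37.9 and 25 and did not pass (limma adjusted p = 0.076). All 5 leak channels tested lay below the median change of all genes, with 2 past the threshold. KCNIP1, a calcium-binding auxiliary subunit best known from neurons, stood at 0.824 and 1.66 FPKM in the knockouts and 8.51 and 4.97 in the wild types, a log2 change of -1.78 (SE 0.37, limma adjusted p = 0.028).

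The 2 other abundant kidney inward rectifiers were below WT in both KO animals without passing. KCNJ1 stood at 18.5 and 33.3 FPKM against 44.3 and 75.3 (limma adjusted p = 0.11), and KCNJ15 at 7.21 and 13.0 FPKM against 21.9 and 31.0 (limma adjusted p = 0.060). KCNS3, a silent voltage-gated subunit, was at 3.98 and 5.57 FPKM against 7.54 and 11.4 (limma adjusted p = 0.18), and KCNMA1 at 1.56 and 1.46 FPKM against 4.25 and 2.77 (limma adjusted p = 0.20). In the other direction, KCNJ8 and KCND1 were among the members with the smallest p, and neither passed the threshold. KCNJ8, the vascular ATP-sensitive pore, was at 5.74 and 7.51 FPKM against 0.893 and 3.38 (limma adjusted p = 0.099). KCND1, a transient voltage-gated pore, was at 5.29 and 2.63 FPKM against 0.762 and 1.32 (limma adjusted p = 0.10).

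**Figure D2:**
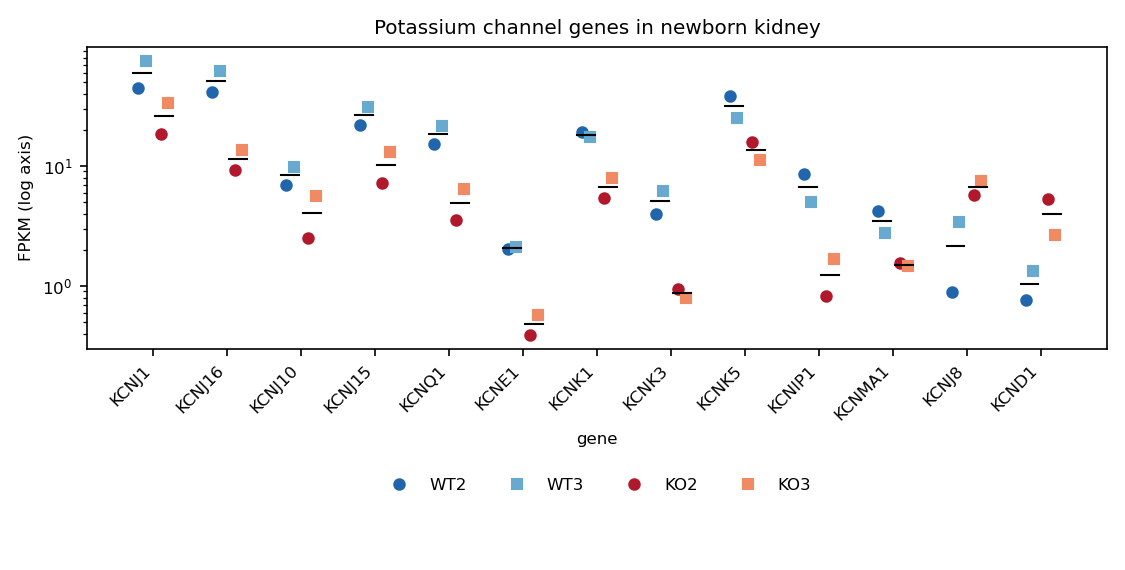
FPKM of 13 potassium channel genes in newborn kidney on a log axis, 1 point per animal (mean of its 2 libraries) and a bar at the mean of each genotype. KCNJ16 lies at 9.24 and 13.6 FPKM in the knockouts and 41.2 and 61.5 in the wild types, while KCNJ8 and KCND1 at the right are higher in KO than in WT.

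Transport genes that work beside these channels, from a separate list of 30 potassium handling genes, had 6 of 23 tested members lower in KO kidney and none higher. The sodium pump subunit ATP1B1 stood at 131 and 140 FPKM against 788 and 835 (log2 change -2.57, limma adjusted p = 0.0030). SLC12A3, the thiazide-sensitive cotransporter of the distal tubule, stood at 8.15 and 15.8 FPKM against 68.7 and 74.1 (log2 change -2.54, limma adjusted p = 0.0056). The proton-potassium pump ATP12A and the regulators SGK1 and WNK4 were also lower. The median log2 change over the 23 genes was -1.01, beside -0.31 over the 38 channel genes and -0.04 over all genes.

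Marker levels of kidney cell types also differed between the genotypes, in both directions. The 5 proximal tubule markers summed to 231 and 239 FPKM in the knockouts and 1581 and 1407 in the wild types. The 4 loop and distal tubule markers summed to 208 and 466 FPKM against 3117 and 2858, and the 4 collecting duct markers to 127 and 125 FPKM against 364 and 535. The 5 smooth muscle and pericyte markers summed to 148 and 141 FPKM against 383 and 292. The 4 podocyte markers were not lower, at 355 and 432 FPKM against 316 and 267. The 5 fibroblast markers were higher, at 589 and 599 FPKM against 300 and 306. The 4 endothelial markers overlapped, at 59.8 and 101 FPKM against 74.7 and 82.8. No marker of these lists was at 0 in any animal, and their part in the channel results was not tested.

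The change in kidney was compared with each animal's mean over the other 6 tissues. Of 60 members, KCNJ16 (log2 difference -1.89, SE 0.31, limma adjusted p = 0.034), KCNK5 (-1.60, SE 0.29, limma adjusted p = 0.043) and KCNIP1 (-1.56, SE 0.29, limma adjusted p = 0.045) had a lower KO change in kidney than elsewhere, in a test that called 2.85% of all genes lower and 0.698% higher. The mean log2 change over the other 6 tissues was -0.18 for KCNJ16, with -1.10 in brain, and -0.22 for KCNIP1, with -1.77 in brain. For KCNK5 it was 0.46, with 1.61 in thymus, 0.76 in lung and 0.52 in liver, none of which passed, so only part of its difference came from the kidney change of -1.15 (limma adjusted p = 0.076). In WT animals KCNJ16 averaged at most 1.44 FPKM in any other tissue. KCNIP1 stayed under 1 FPKM in WT heart, liver, lung and muscle. So low a gene has little room to fall on the log2(FPKM + 1) scale. For KCNJ16 and KCNIP1 the test therefore cannot part a KO change limited to kidney from where the gene is expressed. Each of the 3 lost this call when KO2, WT2 or WT3 was left out. Within kidney, KCNJ16 kept its call when KO2, KO3 or WT2 was left out and lost it without WT3 (limma adjusted p = 0.087). KCNQ1, KCNK1, KCNK3 and KCNIP1 lost their kidney calls without WT2. The count of members called was higher without KO3 and lower without KO2, WT2 or WT3. The share of all genes called moved the same way each time. With 2 animals a group, the smallest p an exact permutation test allows is 0.33, so every call rests on the spread that limma shares across genes.

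In heart, no potassium channel gene passed in the knockout comparison, and the repolarising pores KCNH2 and KCNJ2 overlapped between the genotypes. Of 25 members tested, limma called 0 higher and 0 lower, where it called 0.106% of all 12256 genes higher and 0.0734% lower. KCNQ1 was at 15.8 and 15.4 FPKM in the knockouts and 18.8 and 19.7 in the wild types, and KCNH2 at 28.6 and 24 FPKM against 17.4 and 31.0. KCNJ2 was at 7.94 and 11.2 FPKM against 7.30 and 12.1. The log2 changes of KCNQ1, KCNH2 and KCNJ2 were -0.29 (SE 0.39), 0.17 (SE 0.40) and 0.00 (SE 0.44), each smaller than its SE with 2 animals a group.

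The pores and subunits of the early repolarising currents did not pass either. KCNIP2, which controls the transient outward current, was at 3.64 and 6.70 FPKM in the knockouts and 8.99 and 10.7 in the wild types (limma adjusted p = 0.62), and its pore partner KCND3 was low throughout, at 0.522 and 1.38 FPKM against 1.44 and 1.19. KCNA5, the ultrarapid atrial pore, was at 2.87 and 3.55 FPKM against 4.79 and 7.93 (limma adjusted p = 0.70). KCNE1, the auxiliary partner of KCNQ1, was at 2.84 and 4.94 FPKM against 3.07 and 1.51 and overlapped between genotypes. KCNK3 was at 0.355 and 0.916 FPKM against 1.59 and 1.75 without overlap (limma adjusted p = 0.71).

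The acetylcholine-gated atrial channel is built from KCNJ3 and KCNJ5. KCNJ3 was at 11.7 and 4.96 FPKM in the knockouts and 2.20 and 4.86 in the wild types, with KO2 far above the other 3 animals (limma adjusted p = 0.59). KCNJ5 was at 1.60 and 5.61 FPKM against 2.22 and 1.45, with KO3 highest. The 4 atrial markers summed to 4744 and 3318 FPKM in the knockouts and 1857 and 1355 in the wild types, and the 3 ventricular markers to 12880 and 8025 FPKM against 17969 and 10743, none at 0, and their part in these values was not tested. KCNJ11, the ATP-sensitive pore, was at 1.93 and 2.23 FPKM against 1.36 and 1.61, while its vascular relative KCNJ8 was at 12.9 and 15.3 FPKM against 10.8 and 19.0. ABCC9, the regulatory subunit that both pores can use, was at 4.67 and 10.8 FPKM against 25.4 and 12.

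The smallest p values in heart belonged to KCNMB1, KCNAB2 and KCNMA1 among those lower in KO and to KCNMB2, KCNJ3 and KCNK6 among those higher. KCNMB1, the beta subunit of the calcium-activated channel in vascular smooth muscle, was at 0.674 and 1.23 FPKM in the knockouts and 3.8 and 5.83 in the wild types (log2 change -1.57, SE 0.47, limma adjusted p = 0.26). Its pore KCNMA1 was at 0.201 and 0.331 FPKM against 1.01 and 2.54 (limma adjusted p = 0.48), and KCNAB2 at 0.929 and 1.37 FPKM against 6.06 and 3.53 (limma adjusted p = 0.33). The 5 smooth muscle and pericyte markers summed to 228 and 246 FPKM in KO heart and 492 and 452 in WT, none at 0, and their part was not tested. In the other direction stood the beta subunit KCNMB2, at 9.64 and 10.2 FPKM against 5.62 and 3.54 (limma adjusted p = 0.51). KCNK6, a leak channel, was at 1.23 and 16.7 FPKM against 0.847 and 1.92, and its log2 change of 1.44 turned to -0.06 when KO3 was left out. In 10 of the 25 members both KO animals lay below both WT animals, against 16.8% of all genes, and in 3 both lay above, against 19.3%.

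In fetal muscle, 8 potassium channel genes rose and 4 fell between gestation months 2 and 4. They came from 31 members tested by limma, in a comparison that called 22.3% of all 12352 genes higher and 15.7% lower. Since the fetal libraries may share a fetus, their p-values cover only the spread from library to library. The median log2 change of the 31 members was 0.24 beside 0.16 for all genes. All 5 inward rectifiers tested lay above the median of all genes, and 4 of them rose.

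KCNC4, a fast voltage-gated pore that is abundant in skeletal muscle, was at 0.746 and 0.881 FPKM at month 2 and 17.4 and 23.1 at month 4. It rose by 3.54 on the log2 scale (SE 0.22, limma adjusted p = 8.3e-06) and was the largest change of any member tested in muscle. KCNS3 was at 4.92 and 3.74 FPKM and then 15.8 and 18.3, a log2 change of 1.77 (limma adjusted p = 0.00024). KCNA7, a voltage-gated pore of muscle, was at 3.79 and 4.23 FPKM and then 10.6 and 15.7, a log2 change of 1.48 (limma adjusted p = 0.0010).

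Among the inward rectifiers, KCNJ12 was at 3.65 and 3.26 FPKM at month 2 and 12.2 and 20.3 at month 4, and KCNJ11 was at 4.80 and 6.53 FPKM and then 16.8 and 20.7. KCNJ12 rose by 1.91 (limma adjusted p = 0.00041) and KCNJ11 by 1.57 (limma adjusted p = 0.00051) on the log2 scale, with no overlap between the months. KCNJ8 rose by 1.03 (limma adjusted p = 0.0054), from 5.38 and 4.51 FPKM to 13.0 and 9.42. KCNJ2 rose by 0.69 (limma adjusted p = 0.041), from 0.981 and 1.06 FPKM to 2.37 and 2.17. KCNMB1 completed the 8, at 0.655 and 0.376 FPKM and then 8.20 and 1.85, so its month 4 libraries differed widely. ABCC9, the regulatory partner of KCNJ11 and KCNJ8, rose with them by 2.23 (limma adjusted p = 0.00031).

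Among the 4 that fell were KCNH3 and KCNIP2, both abundant in newborn brain, and the silent subunit KCNG2. KCNH3 went from 6.71 and 7.07 FPKM to 1.23 and 1.35 (log2 change -1.78, limma adjusted p = 0.00028), and KCNIP2 from 3.40 and 3.75 FPKM to 1.09 and 1.62 (log2 change -0.97, limma adjusted p = 0.011). KCNG2 was at 1.59 and 1.64 FPKM and then 0.591 and 0.399, a log2 change of -0.81 (limma adjusted p = 0.029). KCNJ2 and KCNIP2 each lost their call when either month 2 library was left out, and KCNJ8 lost its call without the second (limma adjusted p = 0.072). Leaving out the first month 2 library reduced the members called to 8 of 33, and leaving out the second to 7 of 33. The share of all genes called fell from 37.9% to 17.3% and 15.3%. In both fits more members lost their call than those named.

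In newborn muscle, limma called 1 higher and 0 lower of 25 members tested in the knockout comparison. It called 0.745% of all 12087 genes higher and 1.58% lower. The call was lost without KO2 or WT2, under quantile normalisation and with no level filter, where the share of all genes called was lower too. Without KO3 both the count of members and that share were higher. The median log2 change was 0.29 over the 25 members and 0.00 over all genes.

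The fetal table was made separately and is set beside the newborn one by level alone. KCNIP2 was at 3.40 and 3.75 FPKM at month 2, 1.09 and 1.62 at month 4, 0.420 and 0.716 in WT newborns and 1.83 and 2.10 in KO newborns. KCNA7 was at 9.85 and 12.7 FPKM in KO newborns, near the 10.6 and 15.7 of month 4, and at 5.88 and 3.84 in WT newborns (limma adjusted p = 0.32). KCNE5, an auxiliary subunit, was at 34.6 and 34.4 FPKM at month 2, 29.2 and 25.6 at month 4, 10.9 and 4.41 in WT newborns and 5.65 and 6.36 in KO newborns, so KO did not stand near the fetal level for that gene. Of the 7 genes called as rising between the fetal months and tested in newborns, 4 had a lower and 3 a higher change in KO than the median of all genes.

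**Figure D3:**
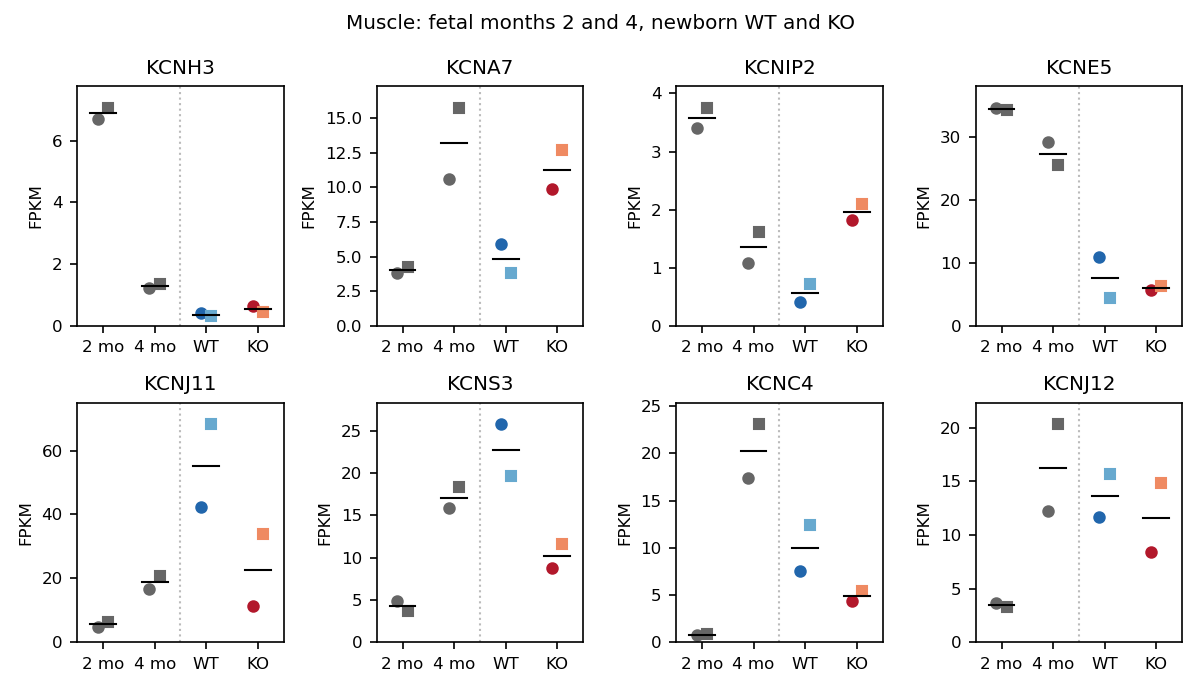
FPKM of 8 potassium channel genes in muscle at fetal months 2 and 4 (1 point per library, grey) and in newborn WT and KO (1 point per animal, circle for WT2 and KO2, square for WT3 and KO3), with a bar at each mean. A dotted line parts the separately made fetal and newborn tables. KCNA7 is at 9.85 and 12.7 FPKM in the knockouts against 5.88 and 3.84 in the wild types, and KCNJ11 is highest in WT newborns at 42.3 and 68.2 FPKM.

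Among the abundant muscle pores, KCNJ11, KCNS3 and KCNC4 were lower in both KO animals without passing. KCNJ12 overlapped, with libraries at 8.36 to 15.3 FPKM in KO and 11.6 to 15.8 FPKM in WT. KCNJ11 was at 11.4 and 33.9 FPKM in the knockouts and 42.3 and 68.2 in the wild types (log2 change -1.40, SE 0.51, limma adjusted p = 0.18). Its regulatory partners did not go with it, with ABCC8 at 1.66 and 2.63 FPKM against 0.763 and 0.880 and ABCC9 at 6.86 and 23.3 FPKM against 9.53 and 11.8. KCNS3 was at 8.83 and 11.6 FPKM against 25.7 and 19.7 (limma adjusted p = 0.30), and KCNC4 at 4.36 and 5.40 FPKM against 7.57 and 12.4 (limma adjusted p = 0.48).

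The voltage-gated KCNQ5 was at 0.331 and 2.01 FPKM in the knockouts against 4.10 and 5.42 (-1.52 on the log2 scale, SE 0.49, limma adjusted p = 0.12), with no overlap. KCNMA1, KCNH2, KCNJ12 and KCNE5 gave adjusted p values of 0.65, 0.35, 0.91 and 0.93 by limma. KCNJ2 was at 3.38 and 7.44 FPKM against 2.11 and 3.93, and KCNN3, the small-conductance calcium-activated pore of immature or denervated muscle, at 1.39 and 2.92 FPKM against 1.60 and 1.40, both overlapping. KCNE3, an auxiliary subunit, stayed under 1 FPKM in all 4 animals. In 9 of the 25 members both KO animals lay below both WT animals, against 20.2% of all genes, and in 6 both lay above, against 21.6%.

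Markers of other cells differed between the muscle samples. The 4 Schwann cell markers summed to 94.0 and 2124 FPKM in the knockouts and 288 and 148 in the wild types, so KO3 muscle stood apart. The 5 skeletal muscle markers summed to 45033 and 29874 FPKM in the knockouts and 73225 and 60849 in the wild types, and the 5 smooth muscle and pericyte markers to 105 and 155 FPKM against 473 and 319, none at 0, and their part was not tested. Of the potassium handling list, 1 of 16 tested genes passed in muscle, the pump subunit ATP1B1, which fell by 1.74 on the log2 scale (limma adjusted p = 0.039).

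In fetal brain, KCNG1, KCNIP3, KCNF1, KCNC4 and KCNJ4 rose between months 2 and 4. They were 5 of 57 members tested by limma, with none that fell, in a comparison that called 3.28% of all 13114 genes higher and 0.732% lower. The median log2 change of the 57 was 0.44, beside 0.06 for all genes.

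KCNG1 was at 15.6 and 10.5 FPKM at month 2 and 44.3 and 45 at month 4, a log2 change of 1.73 (SE 0.23, limma adjusted p = 0.0060). KCNIP3 was at 5.08 and 5.49 FPKM and then 14.8 and 18.9, a log2 change of 1.50 (SE 0.22, limma adjusted p = 0.0087). KCNF1, another silent subunit, was at 2.77 and 4.56 FPKM and then 9.86 and 11.6, a log2 change of 1.35 (SE 0.25, limma adjusted p = 0.023). In these 3 genes and in the next 2 the months did not overlap.

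KCNC4 was at 7.94 and 7.96 FPKM and then 16.7 and 17.7, a log2 change of 1.02 (SE 0.20, limma adjusted p = 0.028). KCNJ4 was at 9.31 and 14.2 FPKM and then 24.5 and 35.7, a log2 change of 1.29 (SE 0.27, limma adjusted p = 0.034). Leaving out either month 4 library ended these calls, and leaving out either month 2 library gave more, so the count depends on single libraries. The share of all genes called moved the same way. Among partner and potassium handling genes, the contactin-associated protein CNTNAP2, which clusters voltage-gated channels beside the node, rose by 1.11 (limma adjusted p = 0.047). The chloride-extruding cotransporter SLC12A5 rose by 1.21 (limma adjusted p = 0.034).

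Brain and muscle differed in how the channels changed between the months. In the test of that difference over 62 members, 10 had a higher change in brain and 4 a higher change in muscle, where 7.39% and 6.61% of all 13742 genes did so. KCNH3 was the most divergent towards brain, with a log2 difference of 2.69 (SE 0.32, limma adjusted p = 0.0015), and KCNC4 towards muscle, with -2.51 (SE 0.27, limma adjusted p = 0.0011). KCNIP3, KCNF1, KCNIP2, KCNG1, KCNE5, KCNJ4, KCNJ9 and KCNH2 also changed towards brain, and KCNS3, KCNJ11 and KCNJ8 towards muscle. KCNF1, KCNG1, KCNJ4 and KCNJ9 averaged under 1 FPKM in fetal muscle and passed the level filter through brain alone. They had little room to fall in muscle, so their differences describe the set and support nothing further. The 14 calls fell most without the second month 4 brain library or either month 2 muscle library. They also fell without the first month 4 muscle library, and the share of all genes called fell in each of these fits. Without either month 2 brain library 10 were called, and that share fell too. Without the first month 4 brain library 10 of 60 were called, while the share of all genes rose from 14% to 14.8%. Without the second month 4 muscle library 13 of 62 were called, with 16.1% of all genes.

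In newborn brain, most potassium channel genes had lower levels in KO, but none passed the test. Limma called 0 of 61 members higher or lower, with 0 higher and 14 lower at an unadjusted p under 0.05, and it called 0% of all 13392 genes in either direction, with 450 higher and 1251 lower at an unadjusted p under 0.05. The median log2 change was -0.76 over the members and -0.20 over all genes. In 32 of the 61, both KO animals lay below both WT animals, against 35.1% of all genes tested, a share of members that is above that background. In 3 of the 61 both KO animals lay above, against 15.3%.

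By family, 25 of 27 voltage-gated pores, 7 of 9 inward rectifiers, 6 of 8 leak channels and 8 of 11 auxiliary subunits lay below the median change of all genes. The calcium- or sodium-activated pores were divided, with 4 of 6 above it. KCNMA1, for example, was at 25.1 and 25.8 FPKM in the knockouts and 24 and 28.3 in the wild types, while the sodium-activated KCNT1 was at 1.87 and 2.52 FPKM against 3.30 and 4.15.

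The smallest p among all members belonged to KCNIP1, at 6.33 and 7.68 FPKM in the knockouts and 26.8 and 25.5 in the wild types, a log2 change of -1.77 (SE 0.29, limma adjusted p = 0.39). KCNA2, a pore of axons and their initial segments, was at 1.32 and 2.79 FPKM against 13.0 and 8.52 (-1.96 on the log2 scale, SE 0.38, limma adjusted p = 0.39). KCND2, the dendritic transient pore that KCNIP subunits and DPP6 control, was at 3.17 and 3.97 FPKM against 8.69 and 8.28 (limma adjusted p = 0.39). None of the 3 overlapped between genotypes. Their partners went the same way without passing, with KCNIP4 at 4.52 and 8.38 FPKM against 19.4 and 16.1, DPP6 at 11.2 and 18.2 FPKM against 34.2 and 46.5, and KCNA1 at 1.1 and 2.98 FPKM against 3.88 and 5.89.

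Among the most abundant brain members, KCNH3 and KCNJ4 overlapped between the genotypes. KCNH3 was at 39.6 and 92.8 FPKM in the knockouts and 72.1 and 76.5 in the wild types, and KCNJ4 at 17.7 and 90.1 FPKM against 49.8 and 76.8, with KO2 lowest and KO3 highest of the 4 animals in both. KCNQ3 was at 5.65 and 18.5 FPKM against 36.5 and 22.0, without overlap. KCNC1, a pore of fast-spiking neurons, was at 1.40 and 4.61 FPKM against 6.73 and 4.78, without overlap. The leak channel KCNK2 was close, at 1.83 and 2.38 FPKM against 2.80 and 2.53, also without overlap. The members with the smallest p among those higher in KO were KCNJ8, at 4.37 and 2.00 FPKM against 0.676 and 1.39, KCNE5, at 7.11 and 2.08 FPKM against 1.80 and 2.07, and KCNJ14, at 3.33 and 1.09 FPKM against 0.798 and 1.14, with KO2 highest in each.

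**Figure D4:**
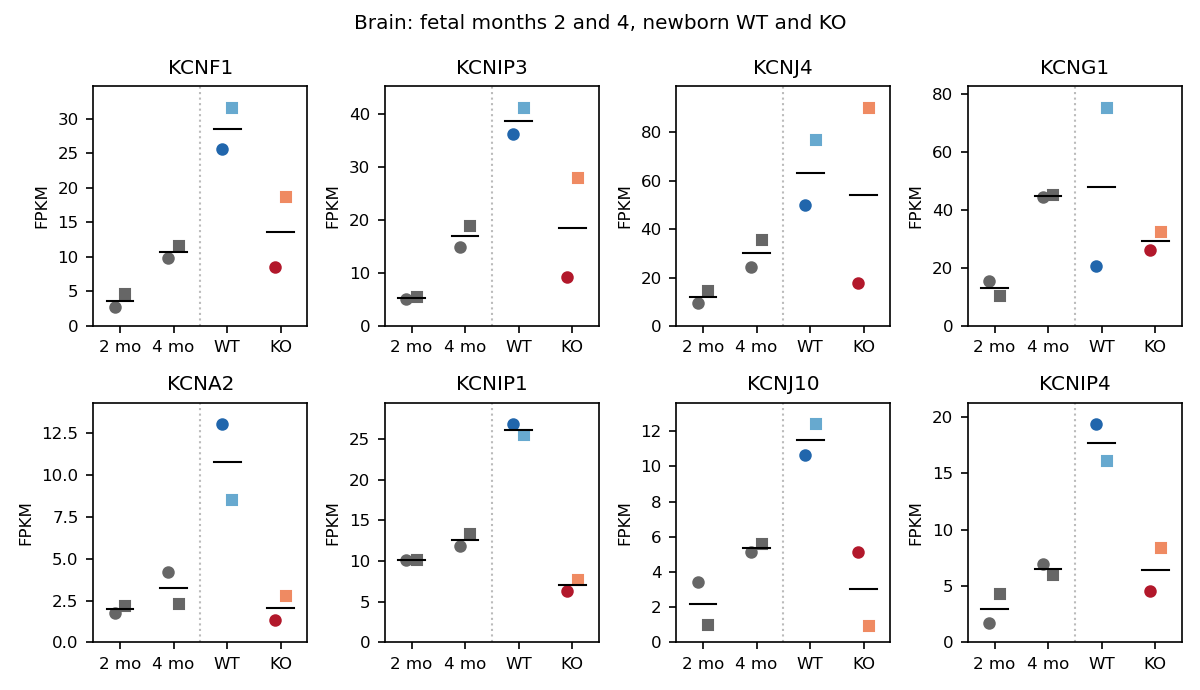
FPKM of 8 potassium channel genes in brain at fetal months 2 and 4 (1 point per library, grey) and in newborn WT and KO (1 point per animal, circle for WT2 and KO2, square for WT3 and KO3), with a bar at each mean. A dotted line parts the separately made fetal and newborn tables. KCNIP1 is at 26.8 and 25.5 FPKM in WT newborns and at 6.33 and 7.68 in KO newborns, while KCNJ4 spans 17.7 to 90.1 FPKM in the KO animals.

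Fetal and newborn levels are set side by side here with no test, since the tables were made separately. KCNA2 was at 1.75 and 2.22 FPKM at fetal month 2, 4.21 and 2.30 at month 4, 13.0 and 8.52 in WT newborns and 1.32 and 2.79 in KO newborns. KCNIP1 was at 10.2 and 10.1 FPKM at month 2, 11.9 and 13.3 at month 4, and then 26.8 and 25.5 in WT and 6.33 and 7.68 in KO newborns. The 5 genes called as rising between the fetal months all had a lower change in KO newborn brain than the median of all genes. Most members of every family but the calcium- or sodium-activated pores did so too, so this is not particular to the 5.

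The 2 KO brains differed from each other. The 5 microglia and macrophage markers summed to 97.5 FPKM in KO2 and 0.519 in KO3, with all 5 under 1 FPKM in KO3 and none at 0, against 117 and 122 FPKM in WT. The 5 astrocyte markers summed to 538 and 156 FPKM in the knockouts and 691 and 635 in the wild types, and KCNJ10, the potassium-buffering channel of astrocytes, was at 5.16 and 0.960 FPKM against 10.7 and 12.4. The 5 oligodendrocyte markers summed to 131 and 276 FPKM against 1060 and 409, and the 5 inhibitory neuron markers to 165 and 297 FPKM against 309 and 751. The 6 general neuronal markers summed to 2205 and 2704 FPKM in the knockouts and 2124 and 2157 in the wild types, and they did not move together. STMN2, the largest part of the sum, was at 1695 and 1495 FPKM against 1077 and 1000.4, and SYT1 was at 39.6 and 150 FPKM against 257 and 229. SNAP25 at 87.3 FPKM, NEFL at 55.6 and RBFOX3 at 37.0 were below both WT animals in KO2, while in KO3 SNAP25 at 453 FPKM and NEFL at 191 were above both. The part of these cell types in the channel values was not tested. Without KO3, 31 of 63 members were called, where 17.5% of all genes were. Without KO2 it was 1 of 62, where 0.517% of all genes were called, and 1 fit over all 7 tissues with every animal kept called 17 of 61 and 4.74% of all genes.

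Beyond the 4 tissues, limma called 0 of 26 members in thymus, 0 of 14 in liver and 0 of 29 in lung. The comparisons called 0% higher and 0.00772% lower of all genes in thymus, 0.262% and 0.836% in liver, and 0% and 0% in lung. The tests of the KO change in a tissue against the mean KO change of the other 6 called 0 of 60 members in brain, heart and muscle. They called 0.00665% of all genes higher and 0% lower in brain, 0.126% and 0.0665% in heart, and 0.0399% and 0.0133% in muscle. The brain test gave calls among members without KO3 or KO2, the heart test without KO2, and the muscle test without KO2 or WT3. More of all genes were called in each of these fits too. In the knockout comparisons themselves, leaving out KO3 gave calls among members in thymus and lung, and leaving out KO2 did so in lung. These fits also called more of all genes. Averaged over the 7 tissues of each animal, 0 of 60 members passed, where 0.253% of all genes were called higher and 0.239% lower. Leaving out KO3 gave calls among members there, and more of all genes were called too.

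A few genes kept 1 direction through many tissues, and they are named here after their values were seen, from the 60 members with a mean of at least 1 FPKM unless said otherwise. KCNK3 was lower in both KO animals than in both WT animals in all 7 tissues, as were 0.572% of all 15038 genes. In lung, its most abundant site, it stood at 10.2 and 14.1 FPKM in the knockouts against 14.4 and 26.6 in the wild types, and its mean log2 change over tissues was -0.83 (SE 0.24, limma adjusted p = 0.18). KCND1 and KCNN1 were higher in both KO animals than in both WT animals in 5 or more of the 7 tissues, as were 4.1% of all genes. In lung KCND1 stood at 11.8 and 7.39 FPKM against 0.984 and 2.09, and in thymus at 8.41 and 4.19 FPKM against 1.54 and 2.29, while in brain its genotypes overlapped. KCNN1, a small-conductance calcium-activated pore, stayed under 1 FPKM in all tissues except brain, so its direction elsewhere rests on very low values. KCNE2, an auxiliary subunit below the level filter, was also higher in both KO animals in 5 tissues, at no more than 1.38 FPKM in those.

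KCNJ14, an inward rectifier, was high in 1 animal. KO2 had the highest level of the 4 animals in all 7 tissues, as for 1.15% of all genes, with 3.33 FPKM in brain and 12.8 in lung, where KO3 stood at 1.09 and 0.419 FPKM and the WT animals between 0.386 and 1.53. KCNK7 and KCNV2, both below the level filter, were likewise highest in KO2 in all 7 tissues, at up to 3.12 FPKM in lung and 2.71 in liver. KCNJ8 was higher in both KO animals in brain, kidney, lung and thymus, and overlapped in heart, muscle and liver. In lung it stood at 8.16 and 14.7 FPKM against 0.975 and 5.38.

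**Figure D5:**
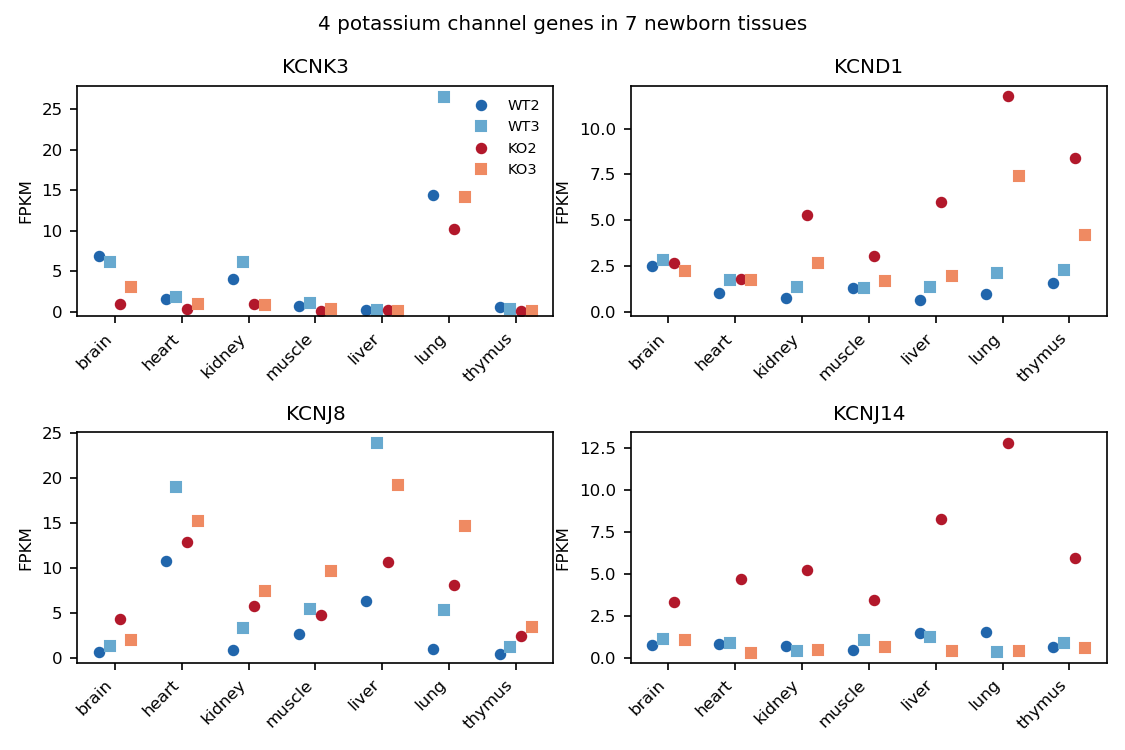
FPKM of KCNK3, KCND1, KCNJ8 and KCNJ14 in 7 newborn tissues, 1 point per animal (mean of its 2 libraries). Both KO points of KCNK3 lie below both WT points in every tissue, and KO2 alone is high for KCNJ14, at 12.8 FPKM in lung.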

How the data were processed

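The authors deposited FPKM values per gene, with newborn and fetal libraries in different tables. Per the submitters' processing notes the tools included CASAVA, HISAT 0.1.6 and Cufflinks 2.0.2, while the sources used here do not give the genome build, annotation or strand use. Overlapping or antisense genes therefore cannot be separated, and no coordinates or sequences are printed. Members were found by symbol, and all 94 were in a RefSeq gene table.

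Log2(FPKM + 1) values of an animal's 2 libraries were averaged. Each comparison was fitted with limma 3.58.1 (R 4.3.3, trended eBayes) across all genes averaging 1 FPKM or more, with Benjamini-Hochberg adjustment and a threshold of 0.05. Log2 changes are on the log2(FPKM + 1) scale and understate low genes. The fits were tested on simulated data. The WT tissue fit blocked on the animal, since its tissues share animals. KO and WT animals with the same number deviated together across genes at r = -0.097 to 0.09. With 2 animals a group this cannot exclude pairing. The labels do not say whether the numbers pair animals, so the KO fits used no block. Members, gene lists and tests were chosen with earlier results of these data known. Named genes are those past the threshold (up to 10 per direction), otherwise the 3 with the smallest p, the 8 highest in WT per tissue, and members known for the tissue, and a few of these are not reported here. The settings varied were the pseudocount (0.1), the level filter (none), quantile normalisation, single libraries with animals as a correlated unit (statmod 1.5.0), 1 fit of all tissues, a replicate block, KO animals in place of WT, and leaving out each animal or library.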

Additional observations from a re-analysis of the deposited data

Results flagged for a closer look

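Among 158 groups of 4 libraries tested for a value far from the rest, 4 stood out. Chance flags about 1 in 20 groups of independent values. These groups hold repeat libraries of the same animals, so that rate does not hold for them. In WT brain, 1 WT3 library had KCNE5 at 2.35 FPKM against 1.79 to 1.81 in the other 3, and 1 WT2 library had KCNIP1 at 28.6 FPKM against 25 to 25.6. In WT heart, 1 WT3 library had KCNQ1 at 21.0 FPKM against 18.5 to 18.9. In KO muscle, 1 KO3 library had KCNE3 at 0.232 FPKM against 0.626 to 0.696.

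The KO change in kidney differed from the mean KO change of the other 6 tissues for KCNJ16 (log2 difference -1.89), KCNK5 (-1.60) and KCNIP1 (-1.56). KCNJ16 and KCNIP1 were low in most other WT tissues, which leaves them little room to fall there. The change from fetal month 2 to month 4 differed between brain and muscle in 13 genes given here. It was higher in brain for KCNH3 (2.69), KCNF1 (1.82), KCNIP3 (1.81), KCNG1 (1.45), KCNIP2 (1.42), KCNJ4 (1.39), KCNE5 (1.35), KCNJ9 (1.11) and KCNH2 (0.98) on the log2 scale. It was higher in muscle for KCNC4 (-2.51), KCNS3 (-1.25), KCNJ11 (-1.07) and KCNJ8 (-1.05). KCNF1, KCNG1, KCNJ4 and KCNJ9 averaged under 1 FPKM in fetal muscle and passed the level filter through brain alone.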

How the results depend on the processing

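Of the alternative values of named genes, 394 kept direction and side of the threshold, 79 lost and 15 gained a call, and 1 reversed, the KCNK6 change in KO heart (-0.057 to 2.94 when 1 animal is left out, negative without KO3). Read depth is unknown and limits low genes. Counts of members called are given next, and the cause of each shift was not tested. The share of all genes called also shifted with these settings, so the counts are not read as results about the members. With no level filter the count was 0 in KO kidney, KO muscle, the kidney difference and fetal brain, and 8 in the fetal interaction, where genes of near-zero spread enter the fit. A pseudocount of 0.1 gave 0 in the kidney difference and 9 in the fetal interaction. Quantile normalisation gave 0 in KO muscle and 2 in fetal brain. A single fit of all newborn tissues gave 17 in brain, 8 in kidney, 1 in lung and 3 in muscle, and of all fetal libraries 10 in fetal brain. Single libraries with animals as a correlated unit gave 1 in brain and 10 in kidney. With a replicate block the count was 9 in kidney and 3, 8 and 1 in the heart, kidney and muscle differences. That block changed no other count by over 1.5 times. Since the labels do not say whether the numbers pair animals, no weight is put on it. A crossed replicate block in fetal brain, chosen after seeing the data, gave 13. KO animals in place of WT gave 25 in heart, 17 in kidney and 21 in muscle. Leaving out 1 animal gave 0 to 31 in brain, 1 to 10 in kidney, 0 to 2 in muscle, 0 to 2 in lung, 0 to 4 in thymus and 0 to 6 over the mean of 7 tissues. For differences between tissues it gave 0 to 21 in brain, 0 to 1 in heart, 0 to 6 in kidney and 0 to 2 in muscle. Leaving out 1 library gave 0 to 17 in fetal brain, 7 to 18 in fetal muscle and 3 to 13 in the fetal interaction.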
